A study of Caenorhabditis elegans with 14 samples.

Results

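The genes described here are the 10 members of a gene family group of Caenorhabditis elegans that remove superoxide and hydrogen peroxide: the superoxide dismutases sod-1, sod-2, sod-3, sod-4 and sod-5, the catalases ctl-1, ctl-2 and ctl-3, and the peroxiredoxins prdx-2 and prdx-3. They were taken by name from the 46856 genes listed for each library, and all 10 were found. RNA of whole worms at the L4 to young adult stage was sequenced in 14 libraries, which formed 7 groups of 2 biological replicates. Every group carried rrf-3(pk1426), a mutation that makes worms hypersensitive to RNAi, and all bacteria were Escherichia coli HT115. The control group, C, was rrf-3(pk1426) on bacteria with the empty vector L4440. The group rIIS-C carried daf-2(e1368) in addition, a class I allele of the insulin/IGF-1 receptor gene that reduces insulin signaling, and was kept on the same empty vector bacteria. The groups daf-16i and skn-1i were the rrf-3(pk1426);daf-2(e1368) strain fed from the L1 larva on bacteria with double-stranded RNA against daf-16 or skn-1. These 4 groups were kept at 20 °C. The groups C (HS), rIIS-C (HS) and hsf-1i (HS) were the control strain on empty vector, the double mutant on empty vector and the double mutant on hsf-1 RNAi after 2 h at 33 °C, harvested directly afterwards. RNAi lowers a transcript and is not a deletion. From heat-shocked rrf-3(pk1426) worms most of the few immotile animals were picked off by hand, and libraries were made from the replicates with the best RNA integrity.

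Superoxide dismutases turn superoxide, a by-product of respiration, into hydrogen peroxide, and catalases and peroxiredoxins turn hydrogen peroxide into water. The worm has manganese enzymes in the mitochondria, SOD-2 and SOD-3, copper/zinc enzymes in the cytosol, SOD-1 and SOD-5, and an extracellular copper/zinc enzyme, SOD-4. CTL-1 is a cytosolic and CTL-2 a peroxisomal catalase, and their genes lie beside ctl-3 in a tandem cluster. Under reduced insulin signaling the FOXO factor DAF-16 and the Nrf factor SKN-1 enter nuclei of the intestine and other tissues, HSF-1 drives the heat shock response, and sod-3 is widely used as a reporter of DAF-16 activity.

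Levels are given as CPM, the exon reads of a gene brought to a common library total, scaled by TMM, a method that sets the bulk of genes to no change between libraries. The libraries held 4681170 to 22767301 exon reads. RNAi of skn-1 left 26.2 and 25.3 CPM of skn-1 against 153 and 102 in rIIS-C, and hsf-1 RNAi left 13.6 and 13.9 CPM of hsf-1 against 34.2 and 42.0 in rIIS-C (HS). The daf-16 transcript was at 51.7 and 40.7 CPM in daf-16i and at 85.9 and 49.9 CPM in rIIS-C, so these groups overlapped. The share of exon reads that crossed an exon junction was 9.39% to 9.89% in 6 libraries and 22.6% to 26.3% in 6 others, 1 of each kind in every group except C (HS), whose libraries had 14.3% and 16.7%. Without TMM, on the deposited RPKM, the median of all genes itself moved, by 0.73 on the log2 scale for rIIS-C against skn-1i, by 0.57 for rIIS-C (HS) against hsf-1i (HS), by 0.75 for rIIS-C (HS) against C (HS) and by -0.81 for C (HS) against C.

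Of the 10 members, 6 had nearly all of their exon reads placed at 1 position, and the others did not. The catalase genes lie on the minus strand of chromosome II of WBcel235, ctl-2 at 14299657 to 14302020, ctl-1 at 14303621 to 14306253 and ctl-3 at 14307854 to 14310743. Many of their reads were not placed uniquely. Of the reads counted for ctl-1 only 1.85% were unique over all libraries, 0 to 25 reads per library out of 95 to 823, against 14.3% for ctl-3 and 82.0% for ctl-2. How such reads were divided between genes is not given in the sources used here, so the values of ctl-1 and ctl-3 are uncertain, and the sum of the catalases is given beside them. sod-2 (chromosome I, 8434556 to 8435677, plus strand) lies within the span of dpt-1, which is annotated on the other strand with 0 exons there. Its unique share was 14.6% to 45.1% in 12 libraries and 100% in both of C (HS). In each of those 12 its unique reads were slightly fewer than its junction reads, such as 941 and 966 in C replicate 2. In C (HS) replicate 1 they were 3104 and 1038. Fewer genes had under 90% unique reads in the C (HS) libraries, 222 and 225 of 4632 well covered genes, than in the others, 257 to 361. The C (HS) tables thus differ from the others in unique and junction shares. The study used more than one read length and sequencer without assigning them to libraries in the sources used here, and the part of these differences in the total reads was not tested. For sod-3 (chromosome X, 17092768 to 17094097), 98.9% of reads outside C (HS) were unique, and 1 exon of C08A9.3 on the other strand lies within its span. The library kit does not mark strand.

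**Figure D1:**
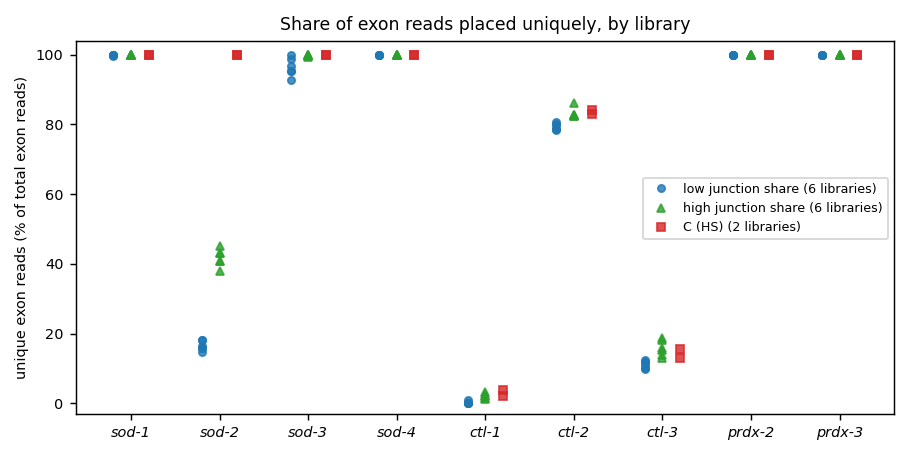
Share of exon reads placed uniquely (y axis, % of total exon reads) for 9 genes (x axis), with 1 point per library; circles are libraries of low junction share, triangles those of high junction share and squares C (HS). ctl-1 stays below 4% in every library, ctl-3 below 19%, and sod-2 is at 14.6% to 45.1% except in C (HS), where it is at 100%.

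Per kilobase of exon length as the tables give it, prdx-2 was the most abundant member, with a mean of 1378 CPM per kb over the 14 libraries. sod-1 followed with 312, prdx-3 with 305 and sod-2 with 202 CPM per kb. The catalases were an order of magnitude lower, at 26.6 for ctl-1, 25.3 for ctl-2 and 23.8 for ctl-3. sod-3 had 19.6 and sod-4 18.4 CPM per kb. sod-5 had 49 reads in all libraries together, at most 11 in one (skn-1i replicate 2), and did not pass the filter on low counts in the main fits. It was at 0 reads in replicate 1 of C, rIIS-C and daf-16i and in replicate 2 of rIIS-C (HS), so 9 of the 10 members were tested and no fold change is given for sod-5.

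sod-1, the main cytosolic superoxide dismutase gene, was lowest in C, at 66.5 and 58.9 CPM. daf-16i had 69.6 and 72.4 CPM and rIIS-C 102 and 101 CPM of sod-1. It was higher again in rIIS-C (HS), at 172 and 125, and in skn-1i, at 169 and 221, and these groups overlapped. C (HS), at 229.5 and 378 CPM, and hsf-1i (HS), at 291 and 314 CPM, had the highest levels and overlapped too. The order for sod-2, the constitutive mitochondrial form, was different. skn-1i was its lowest group, at 69.8 and 91.2 CPM, below C at 93.4 and 116 CPM. daf-16i had 101.5 and 120 CPM of sod-2 and rIIS-C 90.5 and 143.5 CPM, and the replicates of rIIS-C spanned those of C and daf-16i. In the heat-shocked groups sod-2 was at 119 and 140 CPM in hsf-1i (HS), at 188 and 134 in rIIS-C (HS) and at 207 and 270 in C (HS).

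sod-3, the inducible mitochondrial form, was lowest in daf-16i, at 3.82 and 3.60 CPM. C had 4.95 and 5.89 CPM and rIIS-C 6.91 and 10.8 CPM, and none of these 3 groups overlapped. It was at 12.2 and 16.4 CPM in skn-1i, at 16.6 and 13.6 in C (HS) and at 18.7 and 14.1 in rIIS-C (HS), 3 groups that overlapped each other, and at 24.3 and 29.0 in hsf-1i (HS). sod-4, the extracellular form, was at 5.85 to 9.75 CPM in C, daf-16i and rIIS-C and at 9.01 and 6.83 CPM in rIIS-C (HS). C (HS) had 17.2 and 12.8, hsf-1i (HS) 14.3 and 21.8 and skn-1i 17.8 and 29.6 CPM of sod-4.

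As shares of the summed CPM per kb of the 5 dismutase genes within each library, which no scaling between libraries can change, sod-1 and sod-2 together made up most of the total in every library. sod-2 held 50.3% and 57.8% in C, 51.4% and 54.5% in daf-16i, and 39.2% and 49.8% in rIIS-C. In skn-1i it held 22.7% and 22.3%, and in hsf-1i (HS) 23.1% and 24.2%, against 44.0% and 43.5% in rIIS-C (HS). sod-1 held 67.3% and 66.2% in skn-1i and 69.3% and 66.8% in hsf-1i (HS). sod-3 held between 1.66% (daf-16i replicate 2) and 5.10% (hsf-1i (HS) replicate 2). No test was run on these shares.

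**Figure D2:**
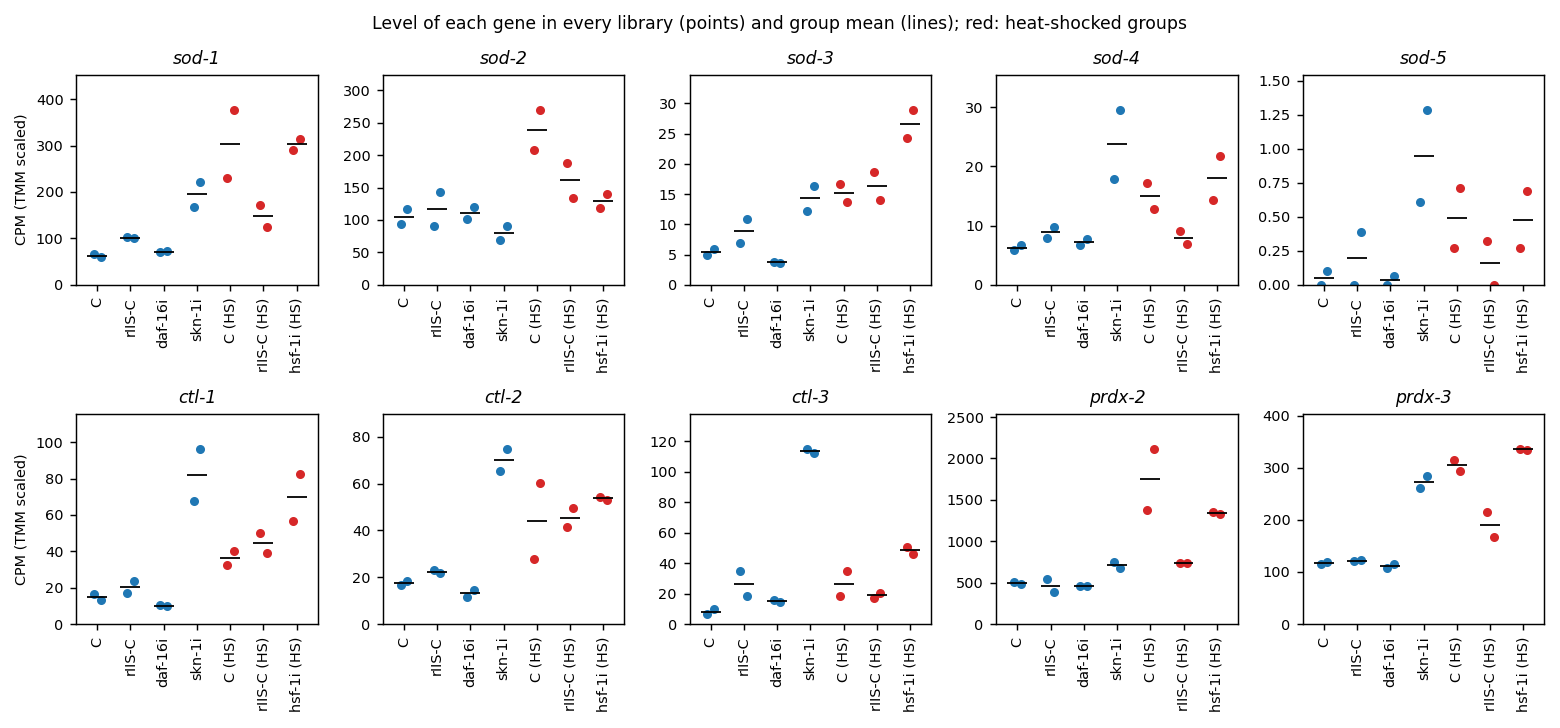
TMM-scaled CPM (y axis, from 0, 1 scale per gene) of each of the 10 members in the 7 groups (x axis), with 1 point per library and a line at the group mean; heat-shocked groups are red. The catalases, sod-4 and sod-5 have their highest means in skn-1i, and sod-2 has its lowest there.

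**Figure D3:**
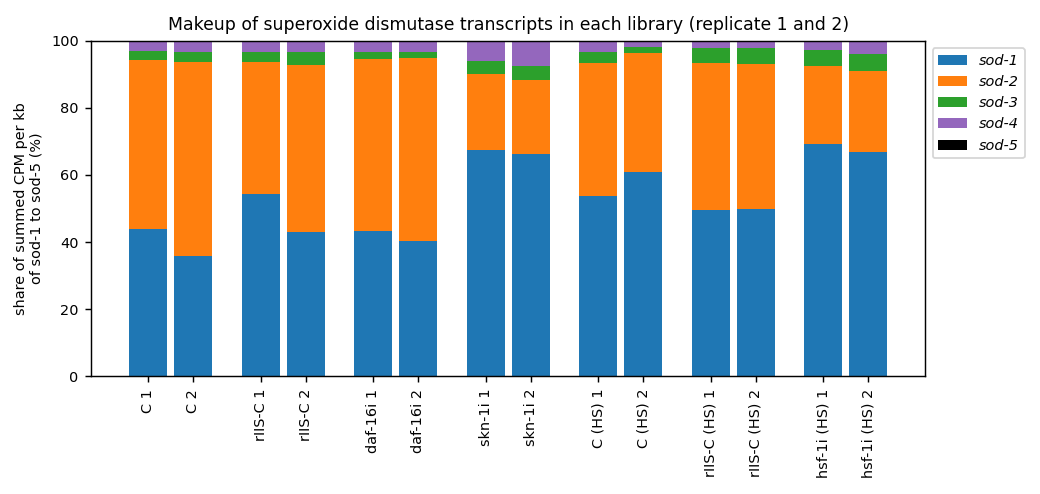
Share of each superoxide dismutase gene (stacked, y axis in %) in the summed CPM per kb of sod-1 to sod-5, in each of the 14 libraries (x axis). sod-2 is at 22.3% to 24.2% in the libraries of skn-1i and hsf-1i (HS), below its share in every other library.

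The 3 catalase genes together were at 39.2 and 41.6 CPM in C and 38.1 and 39.0 CPM in daf-16i. rIIS-C had 74.6 and 63.9, rIIS-C (HS) 108.5 and 109, C (HS) 78.6 and 135, hsf-1i (HS) 162 and 182 and skn-1i 248 and 284 CPM. Among them ctl-3 varied most, from 6.30 and 9.67 CPM in C to 115 and 112.5 CPM in skn-1i. It was at 15.9 and 14.3 CPM in daf-16i, at 34.7 and 18.1 in rIIS-C, at 17.2 and 20.5 in rIIS-C (HS), at 18.1 and 34.8 in C (HS) and at 50.5 and 46.1 in hsf-1i (HS). ctl-3 took 16.1% and 23.2% of the catalase reads in C and 46.4% and 39.6% in skn-1i. The cytosolic ctl-1 ranged from 10.4 and 9.94 CPM in daf-16i to 67.7 and 96.3 CPM in skn-1i. The peroxisomal ctl-2 ranged from 11.8 and 14.7 CPM in daf-16i to 65.3 and 74.9 CPM in skn-1i.

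Both peroxiredoxins, by contrast, were nearly level in C, rIIS-C and daf-16i. prdx-2, the cytosolic peroxiredoxin, was at 509 and 478 CPM in C, at 544 and 386 in rIIS-C and at 458 and 459 in daf-16i, and the rIIS-C libraries spanned those of C and daf-16i. It was at 748 and 680 CPM in skn-1i, at 733 and 742 in rIIS-C (HS), at 1358 and 1330 in hsf-1i (HS) and at 1381 and 2116 in C (HS). prdx-3, the mitochondrial peroxiredoxin, was at 115 and 119 CPM in C, at 121 and 122.5 in rIIS-C and at 108 and 115 in daf-16i. It had 262 and 284 CPM in skn-1i, 215 and 167 in rIIS-C (HS), 315 and 295 in C (HS) and 337 and 335 in hsf-1i (HS).

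Reduced insulin signaling at 20 °C, the comparison of rIIS-C with C, had sod-1 and ctl-3 called higher. No member was called lower, with 0 below an unadjusted p of 0.05 in that direction and 0 called by DESeq2. ctl-3 was higher by 1.67 on the log2 scale (SE 0.28, adjusted p = 0.00272) and sod-1 by 0.70 (SE 0.19, adjusted p = 0.0327). These p-values come from the quasi-likelihood test of edgeR, adjusted by Benjamini and Hochberg's method for 13892 genes, of which 4.46% were called higher and 6.54% lower, so 2 of 9 tested members stood above against a background of 4.46%. The difference for sod-3 was 0.75 (SE 0.25, adjusted p = 0.0823), with both rIIS-C libraries above both C libraries, and did not pass. Neither did sod-4 (0.52, SE 0.28), ctl-1 (0.49, SE 0.25) or ctl-2 (0.35, SE 0.16), whose libraries did not overlap with C either. Those of prdx-3 did not overlap with C as well, and the share of all genes without overlap is not given here. sod-2 was at 0.17 (95% interval -0.32 to 0.65), prdx-2 at -0.09 (-0.42 to 0.25) and prdx-3 at 0.06 (-0.24 to 0.35). The median over the 9 members was 0.49, beside 0.06 over all genes. The catalase sum was higher by 0.78 (SE 0.15, adjusted p = 0.00555).

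ctl-3 stayed called in each of 13 alternative fits, which include the 4 that left out a library. It was higher by 0.89 between the libraries of high junction share and by 2.43 between those of low junction share. The corresponding values were 0.77 and 0.62 for sod-1 and 0.86 and 0.47 for sod-3. Leaving out any of the 4 libraries took the adjusted p of sod-1 above 0.05, to between 0.0585 and 0.253. With a term for junction share, sod-3 passed at an adjusted p of 0.015. The catalase sum lost its call without C replicate 1 or C replicate 2, with adjusted p up to 0.0835. All were whole-worm libraries, in which a change in the number of cells of a type and a change in RNA per cell cannot be told apart. Muscle markers, 6 genes, summed to 1843 to 2380 CPM in rIIS-C and 3672 to 3706 in C, with 4 of 6 called lower. The 7 intestine markers summed to 15129 to 43049 and 20701 to 23395 CPM (2 of 7 called higher) and the 8 oocyte and early embryo markers to 2775 to 4943 and 2462 to 2714 (2 of 8 called higher, list median 0.57). The 6 sperm markers were at 214 to 288 and 351 to 430 CPM and the 7 neuron markers at 190 to 236 and 212, and the part of the markers in these results was not tested.

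DAF-16, asked by comparing rIIS-C with daf-16i, had sod-3, ctl-1 and ctl-2 called higher in rIIS-C. None was called lower, also at an unadjusted p under 0.05 (0 members) and by DESeq2 (0). sod-3 was higher in rIIS-C by 1.31 on the log2 scale (SE 0.27, adjusted p = 0.0133), which was the largest difference among the members. ctl-1 was higher by 1.04 (SE 0.26, adjusted p = 0.0347), ctl-2 by 0.74 (SE 0.16, adjusted p = 0.0197) and the catalase sum by 0.84 (SE 0.15, adjusted p = 0.00508). Over all genes 2.78% were called higher and 3.29% lower by this edgeR test. ctl-3, at 0.77 (SE 0.28, adjusted p = 0.147), and sod-1, at 0.52 (SE 0.19, adjusted p = 0.148), did not pass. Their rIIS-C libraries lay above both daf-16i libraries, as did those of sod-4 and prdx-3. The share of all genes so separated is not given here. With a term for junction share sod-1 passed, at 0.52 and an adjusted p of 0.0484. sod-2, sod-4, prdx-2 and prdx-3 were at 0.09, 0.31, 0.02 and 0.12. The members' median was 0.52, beside 0.03 over all genes.

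sod-3 was higher by 1.54 between the libraries of high junction share and by 0.83 between those of low junction share, ctl-1 by 1.25 and 0.71, and ctl-2 by 0.56 and 0.95. The calls needed every daf-16i library: without daf-16i replicate 1 or without daf-16i replicate 2, 0 members were called, with adjusted p up to 0.148 for sod-3, 0.244 for ctl-1 and 0.228 for ctl-2. Without rIIS-C replicate 2, sod-3 and ctl-1 lost their calls too, and ctl-3 gained one at an adjusted p of 0.011. On unique reads alone ctl-2 was higher by 0.73 (adjusted p = 0.0281), and ctl-1 could not be judged, with at most 25 unique reads in a library. Muscle markers summed to 3041 to 3164 CPM in daf-16i, 2 of 6 of them called lower in rIIS-C, and intestine markers to 22769 to 24058 CPM, 1 of 7 called higher in rIIS-C. Oocyte and early embryo markers summed to 2739 to 2878 CPM and sperm markers to 295 to 388 CPM in daf-16i, and the part of the markers was not tested.

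daf-16i was also set beside C, to see whether the members differed between worms without the receptor mutation and worms with it but on daf-16 RNAi. edgeR called 0 of 9 tested members, where 0.382% of all genes were called higher and 1.21% lower; at an unadjusted p under 0.05 there were 2, and DESeq2 called 0. ctl-3 was higher in daf-16i by 0.90 (SE 0.28, adjusted p = 0.235), with both libraries above those of C. How many genes in all were so separated, or had an unadjusted p under 0.05, is not given here. The thresholds in the study's methods, a fold change from 1.5 up with an unadjusted p up to 0.05, called 1 member. ctl-2, ctl-1 and sod-3 were lower, by -0.40 (SE 0.16), -0.55 (SE 0.26) and -0.56 (SE 0.27), and did not pass. These comparisons share the rIIS-C or the daf-16i libraries and are not independent of each other.

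The comparison of rIIS-C with skn-1i asked about SKN-1, and 8 of the 9 tested members were lower in rIIS-C, that is, higher after skn-1 RNAi. The catalases differed most: ctl-3 was lower in rIIS-C by -2.15 (SE 0.27, adjusted p = 5.78e-05), ctl-1 by -1.98 (SE 0.25, adjusted p = 5.24e-05) and ctl-2 by -1.65 (SE 0.16, adjusted p = 9.39e-06). The sum of the catalases was lower by -1.95 (SE 0.15, adjusted p = 2.1e-06). sod-4 was lower by -1.42 (SE 0.28), prdx-3 by -1.17 (SE 0.15), sod-1 by -0.94 (SE 0.19), sod-3 by -0.65 (SE 0.25) and prdx-2 by -0.62 (SE 0.17), with adjusted p from 7.12e-05 for prdx-3 to 0.0439 for sod-3. sod-2 alone pointed the other way, at 0.54 (SE 0.25, adjusted p = 0.0852), and did not pass. With a term for junction share it did, higher in rIIS-C by 0.53 (adjusted p = 0.00399). In edgeR's test 25.7% of all genes were called lower and 30.6% higher, and the median over all genes was 0.13 beside -1.17 for the members. sod-5 had 3 and 11 reads in skn-1i and 0 and 8 in rIIS-C. Intron reads made up 12.8% of exon and intron reads in skn-1i replicate 2, against 2.91% to 5.62% in the other libraries of the series. The part of this difference in the results was not tested.

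These directions depend on the scaling. On the deposited RPKM, without TMM, sod-1 (0.09), sod-3 (0.29) and prdx-2 (0.37) changed sign and the catalases did not, at -1.13 for ctl-3, -0.94 for ctl-1 and -0.60 for ctl-2. There limma called the 3 catalases lower and sod-2 (1.52) and prdx-2 higher, so 3 of the 8 calls were kept. The median of all genes stood at 0.86 on that scale. Relative to it, sod-1 was at -0.77, sod-3 at -0.57, prdx-2 at -0.48 and ctl-3 at -1.99, and sod-2 at 0.66. On unique reads edgeR put ctl-2 at -1.66 (adjusted p = 2e-05) and ctl-3 at -2.27 (adjusted p = 9.86e-05). It kept 6 of the 8 calls there and lost those of sod-3 and ctl-1 (-1.68, adjusted p = 0.365). sod-3 also lost its call in a single fit of all 14 libraries. prdx-2 lost its call with the exon length trend removed (-0.44, adjusted p = 0.0925). Within the libraries of high and of low junction share, ctl-3 was at -2.62 and -1.72, ctl-2 at -1.77 and -1.50, sod-1 at -1.13 and -0.72 and sod-2 at 0.65 and 0.37. sod-3 lost its call without rIIS-C replicate 1 or without skn-1i replicate 2, with adjusted p up to 0.331, and sod-2 gained one without rIIS-C replicate 1 at an adjusted p of 0.0134.

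Markers of several tissues moved with the same groups. Muscle markers summed to 14214 to 14861 CPM in skn-1i against 1843 to 2380 in rIIS-C, with 6 of 6 genes called. The 7 neuron markers summed to 652 to 675 against 190 to 236 (5 called in the same direction as muscle, 2 in the other). The intestine markers summed to 72693 to 85448 against 15129 to 43049 (6 of 7). The 6 sperm markers summed to 836 to 1377 against 214 to 288 (5 called in the same direction as muscle, 1 in the other). The 8 oocyte and early embryo markers, at 3538 to 3742 against 2775 to 4943 CPM, overlapped, with 3 called higher in rIIS-C and 1 lower. No marker was at 0 in a group. Their part in the difference of the members was not tested.

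**Figure D4:**
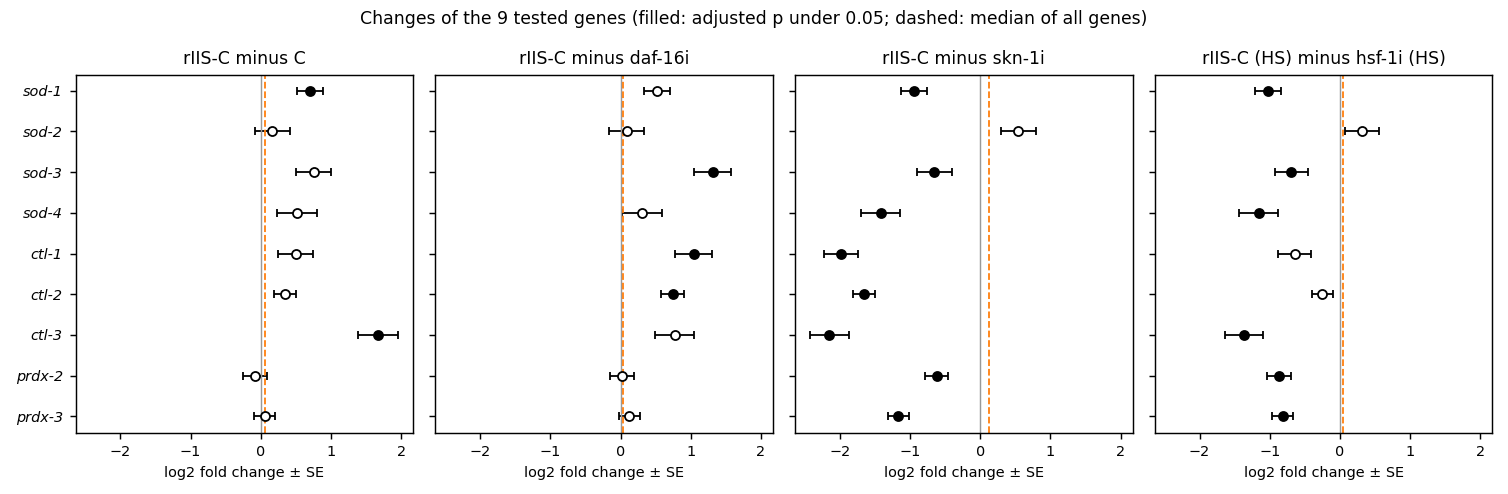
Log2 fold change ± SE (x axis) of the 9 tested members (y axis) in the comparisons of rIIS-C with C, daf-16i and skn-1i and of rIIS-C (HS) with hsf-1i (HS), on TMM-scaled counts; filled points have an adjusted p under 0.05 and the dashed line is the median of all genes. All members except sod-2 lie left of 0 in both right panels, but without TMM sod-1, sod-3 and prdx-2 (against skn-1i) and sod-3, ctl-1 and ctl-2 (against hsf-1i (HS)) lie right of it.

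HSF-1 was asked in heat-shocked worms, rIIS-C (HS) against hsf-1i (HS), where 6 of 9 tested members were lower in rIIS-C (HS). In the other direction 0 were called, 0 were under an unadjusted p of 0.05 and DESeq2 called 0. ctl-3 was lower by -1.37 (SE 0.27, adjusted p = 0.00245), sod-4 by -1.16 (SE 0.28, adjusted p = 0.00785) and sod-1 by -1.03 (SE 0.19, adjusted p = 0.00132). prdx-2 was lower by -0.87 (SE 0.17, adjusted p = 0.00215), prdx-3 by -0.82 (SE 0.15, adjusted p = 0.00152) and sod-3 by -0.69 (SE 0.24, adjusted p = 0.038). With a term for junction share ctl-1 passed too, at -0.64 (adjusted p = 0.00814). Without it ctl-1 (-0.65, SE 0.24, adjusted p = 0.0511) and ctl-2 (-0.25, SE 0.16, adjusted p = 0.233) did not pass, and sod-2 was at 0.31 (SE 0.25, adjusted p = 0.342). The catalase sum was lower by -0.66 (SE 0.15, adjusted p = 0.00422). The background in this edgeR test was 18.8% of genes called lower and 19.3% higher, and the median was 0.05 over all genes beside -0.82 over the members.

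On the RPKM scale the median of all genes stood at 0.62 and sod-3 (0.07), ctl-1 (0.14) and ctl-2 (0.52) changed sign. There limma kept 0 of the 6 lower calls and called 2 members higher, sod-2 (1.08) and ctl-2. Relative to that median sod-3 was at -0.55, ctl-1 at -0.48 and ctl-2 at -0.10, and sod-1, prdx-2 and prdx-3 at -0.88, -0.70 and -0.66. Between libraries of high and of low junction share sod-1 was at -0.86 and -1.22, ctl-3 at -1.41 and -1.30 and prdx-2 at -0.86 and -0.87. sod-3 lost its call without rIIS-C (HS) replicate 2 or either hsf-1i (HS) library (adjusted p up to 0.219), sod-4 without rIIS-C (HS) replicate 2 or hsf-1i (HS) replicate 2 (up to 0.0992), and ctl-1 gained one without hsf-1i (HS) replicate 1 (0.0404). Muscle markers summed to 12044 to 12530 CPM in hsf-1i (HS) against 4183 to 4510 in rIIS-C (HS), neuron markers to 722 to 725 against 205 to 223, intestine markers to 86249 to 99851 against 31795 to 53059 and sperm markers to 1364 to 1795 against 422 to 694. Called in the direction of the members were 6 of 6, 5 of 7, 4 of 7 and 5 of 6 of them. Of the neuron markers 1 was called the other way, and 0 of 8 oocyte and early embryo markers were called. The part of the markers was not tested.

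Heat shock of the control strain, C (HS) against C, raised all 9 tested members. sod-1 rose most, by 2.28 on the log2 scale (SE 0.26, adjusted p = 3.22e-05), followed by prdx-2 with 1.82 (SE 0.23, adjusted p = 6.11e-05) and ctl-3 with 1.71 (SE 0.35, adjusted p = 0.00131). sod-3 rose by 1.47 (SE 0.28), prdx-3 by 1.38 (SE 0.19), ctl-2 by 1.32 (SE 0.29), ctl-1 by 1.30 (SE 0.27), sod-4 by 1.26 (SE 0.31) and sod-2 by 1.19 (SE 0.27). In this edgeR test 27.4% of 14084 genes were called higher and 24.9% lower. On unique reads, of which the C (HS) tables hold a larger share for this gene, sod-2 was at 2.93. On the RPKM scale every member tested stayed above 0, from 0.11 for sod-2 to 1.16 for sod-1, while the median of all genes stood at -0.77, and limma called 2 of them. The C (HS) libraries also differed from C in unique and junction shares, which cannot be told apart from the treatment here. Their muscle markers summed to 8184 to 11378 CPM against 3672 to 3706 in C (5 of 6 called higher, 1 lower), intestine markers to 29179 to 48664 against 20701 to 23395 (2 of 7 higher) and sperm markers to 607 to 679 against 351 to 430 (4 of 6 higher, 1 lower). Neuron markers were at 278 to 296 against 212 CPM (3 of 7 higher, 3 lower) and oocyte and early embryo markers at 2693 to 3655 against 2462 to 2714 (1 of 8 higher), and their part was not tested. No value within junction classes can be given, since both C (HS) libraries lie outside the low and high ranges of the others.

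Heat shock of the double mutant, rIIS-C (HS) against rIIS-C, gave 0 of 9 tested members by edgeR, where 1.89% of all genes were called higher and 0.32% lower. At an unadjusted p under 0.05 there were 6, and DESeq2 called 3, which were ctl-1, ctl-2 and prdx-3 (adjusted p = 0.0065, 0.033 and 0.013). ctl-1 was at 1.103 (SE 0.27, adjusted p = 0.0504), ctl-2 at 1.02 (SE 0.30, adjusted p = 0.0956), sod-3 at 0.86 (SE 0.28), prdx-2 at 0.67 (SE 0.23) and prdx-3 at 0.65 (SE 0.18). sod-1 was at 0.55 (SE 0.25). All of these had both heat-shocked libraries above both others. The share of all genes so separated, or with an unadjusted p under 0.05, is not given here, so neither is read as a result. sod-2 (0.46), sod-4 (-0.16) and ctl-3 (-0.47) overlapped between the groups. With the replicate numbers of the labels as a block, or with a term for junction share, ctl-1 passed, at adjusted p = 0.048 and 0.021. Muscle markers summed to 4183 to 4510 CPM in rIIS-C (HS) against 1843 to 2380 in rIIS-C (3 of 6 called higher). Sperm markers summed to 422 to 694 against 214 to 288 (2 of 6) and intestine markers to 31795 to 53059 against 15129 to 43049 (2 of 7). Of the neuron markers 1 of 7 was called lower, and of the oocyte and early embryo markers 0 of 8 were called. The part of the markers was not tested.

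The response of the double mutant minus that of the control strain was tested directly. It was lower for 4 of 9 tested members: ctl-3 by -2.18 (SE 0.49, adjusted p = 0.0105), sod-1 by -1.72 (SE 0.36, adjusted p = 0.00736), sod-4 by -1.42 (SE 0.44, adjusted p = 0.038) and prdx-2 by -1.16 (SE 0.32, adjusted p = 0.0251). The background was 10.6% of genes called lower and 9.97% higher. ctl-1 (-0.19, SE 0.37), ctl-2 (-0.30, SE 0.41), sod-3 (-0.62, SE 0.39), sod-2 (-0.73, SE 0.38) and prdx-3 (-0.73, SE 0.26, adjusted p = 0.0619) did not pass. With a term for junction share, which puts both C (HS) libraries with the low ones, sod-2 (-0.92, adjusted p = 0.0246) and prdx-3 (-0.79, adjusted p = 0.0288) passed as well. On the RPKM scale, where the median of all genes stood at 0.55, limma called 0 of them, with ctl-3 at -1.23 and sod-1 at -0.94. sod-1 was called with each of the 8 libraries left out in turn and ctl-3 with 7 of 8, all but C replicate 1. sod-4 was called in 2 and prdx-2 in 3 of these 8, with adjusted p up to 0.14 and 0.0928.

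Among heat-shocked worms without RNAi, rIIS-C (HS) against C (HS), prdx-2 was lower in the double mutant by -1.30 (SE 0.24, adjusted p = 0.011) and sod-1 by -1.08 (SE 0.30, adjusted p = 0.0343), the 2 members called among 9. edgeR called 14.5% of 13149 genes lower and 10.4% higher. The C (HS) tables differ from the others in unique and junction shares, which cannot be told apart from the strain in this comparison. On unique reads, of which C (HS) holds a larger share for sod-2, edgeR called sod-2 lower beside sod-1 and prdx-2. prdx-3 (-0.74, SE 0.24, adjusted p = 0.0574), sod-4 (-0.98, SE 0.36), sod-2 (-0.62, SE 0.27) and ctl-3 (-0.54, SE 0.32) did not pass. ctl-2 (0.00, 95% interval -0.66 to 0.66), sod-3 (0.05, -0.53 to 0.64) and ctl-1 (0.23, -0.31 to 0.78) overlapped between the groups. Without rIIS-C (HS) replicate 1 or rIIS-C (HS) replicate 2, 0 members were called, and without C (HS) replicate 1 or C (HS) replicate 2 there were 5 and 4. sod-1 also lost its call with the replicate numbers of the labels as a block (adjusted p = 0.053) and with a term for junction share (0.0659). On the RPKM scale prdx-2 and sod-1 stayed below 0, at -0.35 and -0.14, and lost their calls, while limma called sod-3 (0.92) and ctl-1 (1.09) higher, with the median of all genes at 0.68. Of the muscle markers, 4 of 6 were called lower in rIIS-C (HS), at a sum of 4183 to 4510 against 8184 to 11378 CPM. Intestine markers were at 31795 to 53059 against 29179 to 48664 CPM (2 of 7 called higher). Neuron markers were at 205 to 223 against 278 to 296 CPM (1 of 7 called higher, 2 lower). None of the 6 sperm and the 8 oocyte and early embryo markers was called. The part of the markers was not tested.

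**Figure D5:**
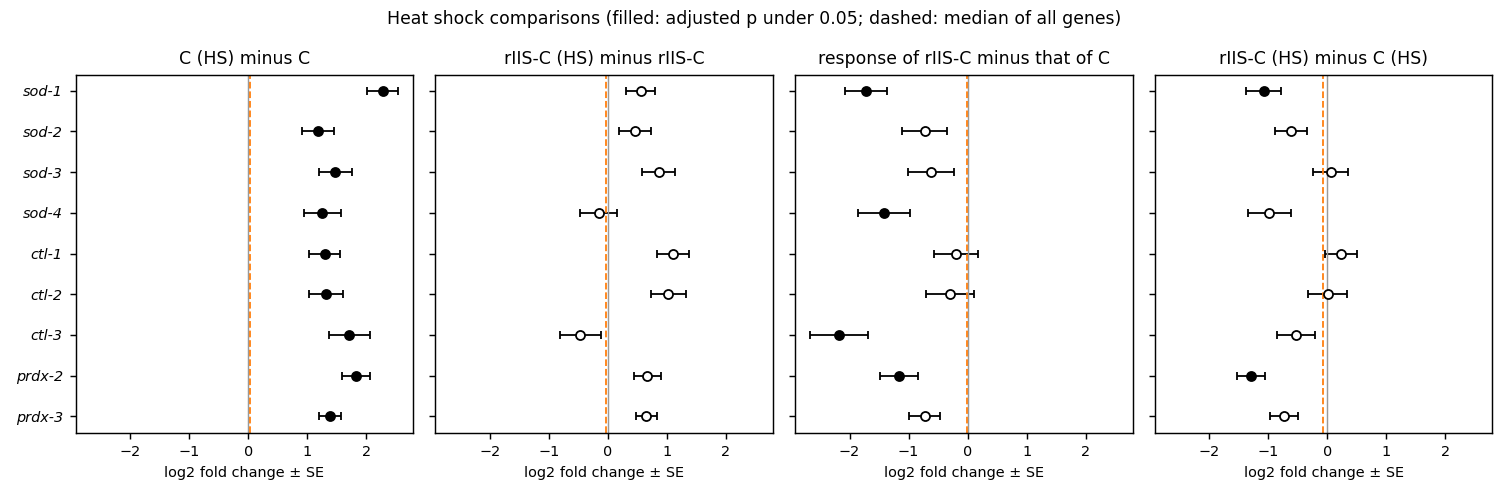
Log2 fold change ± SE (x axis) of the 9 tested members (y axis) for C (HS) minus C, rIIS-C (HS) minus rIIS-C, the difference of these responses and rIIS-C (HS) minus C (HS); filled points have an adjusted p under 0.05 and the dashed line is the median of all genes. All 9 points are filled and right of 0 in the first panel, where sod-1 is at 2.28, and none is filled in the second.

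Glutathione and thioredoxin supply the reducing power for much of peroxide removal. Of 28 genes of glutathione and thioredoxin metabolism, 24 were tested. Over all genes 4.46% were called higher and 6.54% lower in rIIS-C against C, and 2.78% and 3.29% against daf-16i. In rIIS-C against C only msra-1, a methionine sulfoxide reductase gene, was called, lower by -1.33 (SE 0.19, adjusted p = 0.000807) at 16.8 and 26.1 CPM against 53.1 and 57.8. Against daf-16i, msra-1 was lower by -1.58 (SE 0.19) and gspd-1, the glucose-6-phosphate dehydrogenase gene, by -0.55 (SE 0.15, adjusted p = 0.0498). Against skn-1i, 8 of the 24 were higher and 7 lower in rIIS-C, where 30.6% of all genes were called higher and 25.7% lower. The list median was 0.14 beside 0.13 over all genes. The largest rises were those of gss-1, for glutathione synthetase, by 1.68 (SE 0.14), gspd-1 by 1.13 (SE 0.15) and gpx-1, for a glutathione peroxidase, by 1.11 (SE 0.35). trx-2, the mitochondrial thioredoxin gene, prdx-6, a peroxiredoxin gene, and glrx-10, a glutaredoxin gene, were lower by -1.33 (SE 0.23), -1.21 (SE 0.22) and -1.16 (SE 0.30).

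Against hsf-1i (HS), 8 of the 24 were higher and 4 lower in rIIS-C (HS), gspd-1 by 1.47 (SE 0.15), trxr-2, the mitochondrial thioredoxin reductase gene, by 1.19 (SE 0.24), gss-1 by 1.13 (SE 0.14), gpx-5 by -0.74 (SE 0.13) and glrx-3 by -0.61 (SE 0.15). Over all genes 19.3% were called higher and 18.8% lower there. Heat shock in C raised 15 and lowered 4, where 27.4% of all genes were called higher and 24.9% lower. glrx-10 went from 22.2 and 25.2 to 108 and 261 CPM, trx-4 from 17.9 and 21.9 to 74.2 and 105 CPM and prdx-6 from 22.8 and 26.5 to 73.5 and 124 CPM, while gspd-1 went from 122 and 120.1 to 44.9 and 38.0 CPM, gcs-1, for the first enzyme of glutathione synthesis, from 66.6 and 70.0 to 29.7 and 27.6 CPM, and trxr-2 from 12.8 and 11.2 to 6.34 and 4.20 CPM. Heat shock in rIIS-C raised 1, msra-1, by 1.01 (SE 0.24, adjusted p = 0.0482), where edgeR called 1.89% of all genes higher. rIIS-C (HS) against C (HS) had 2 higher and 8 lower, gspd-1 by 1.28 (SE 0.25) and gcs-1 by 1.13 (SE 0.23) against glrx-10 by -2.53 (SE 0.45), trx-4 by -1.46 (SE 0.31) and prdx-6 by -1.42 (SE 0.33). In that comparison 10.4% of all genes were called higher and 14.5% lower. The response of the double mutant minus that of C was higher for the same 2 and lower for 7, beside 9.97% and 10.6% of all genes. In daf-16i against C, edgeR and DESeq2 each called 0, and 1 gene had an unadjusted p under 0.05.

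The 15 peroxisome genes, for the organelle in which CTL-2 works, were all tested. edgeR called 0 in rIIS-C against C, in rIIS-C against daf-16i, in daf-16i against C and for heat shock in rIIS-C. Over all genes it called 0.32% to 6.54% in a direction there. At an unadjusted p under 0.05 there were 1 higher and 1 lower, 4 higher and 1 lower, 1 lower, and 3 higher in these comparisons, and DESeq2 called 1, for heat shock in rIIS-C. Against skn-1i 6 of the 15 were higher in rIIS-C and 4 lower, where 30.6% of all genes were called higher and 25.7% lower. prx-3, prx-10 and prx-19, genes for peroxisome assembly, were higher by 1.87 (SE 0.30), 1.28 (SE 0.20) and 0.94 (SE 0.15). daf-22, the thiolase gene of peroxisomal β-oxidation, was lower by -0.84 (SE 0.16), dhs-28, which acts in the same pathway, by -0.73 (SE 0.14) and prx-11 by -0.66 (SE 0.25). Against hsf-1i (HS) 4 were higher and 1 lower, where 19.3% of all genes were called higher and 18.8% lower. prx-3 was at 1.48 (SE 0.29), acox-1.1, an acyl-CoA oxidase gene, at 1.21 (SE 0.14), prx-10 at 0.82 (SE 0.20) and prx-2 at -0.62 (SE 0.14). Heat shock in C raised 3 and lowered 4, beside 27.4% and 24.9% of all genes. daf-22 was at 1.64 (SE 0.20), prx-11 at 0.83 (SE 0.33) and dhs-28 at 0.50 (SE 0.18), against prx-2 at -2.67 (SE 0.19) and prx-10 at -1.20 (SE 0.30). The prx-2 counts, 8.61 and 9.03 CPM in C (HS) against 55.4 and 56.8 in C, come from tables that differ in unique and junction shares. rIIS-C (HS) against C (HS) had 2 higher and 1 lower, beside 10.4% and 14.5% of all genes. The difference of the responses had 3 higher and 1 lower, beside 9.97% and 10.6% of all genes.

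Across the 14 libraries, which share their groups, the members' log2 CPM mostly varied together, and least so for sod-2. sod-1 had a Pearson r of 0.95 with prdx-3, 0.90 with prdx-2 and 0.88 with sod-3, and ctl-1 had 0.95 with ctl-2. sod-2 had 0.11 with ctl-1, 0.05 with sod-4 and -0.24 with ctl-3, and 0.47 with sod-1 and 0.59 with prdx-2. Among the other members the lowest values were 0.41 for ctl-3 and 0.51 for sod-5, both with prdx-2. Of 8023 genes compared, those most like sod-3 were nspc-14 (r = 0.956), K12H6.6 (0.953), H11E01.2 (0.952), msa-1 (0.947) and F48D6.4 (0.946). Those most like ctl-1 were swm-1 (0.975), zig-9 (0.968), spp-3 (0.964), clec-83 (0.964) and acdh-10 (0.964). Of the ctl-1 reads only 1.85% were unique, and how the others were divided between genes is not given in the sources used here. Joint variation of ctl-1 and ctl-2 thus cannot be told apart from shared reads, and the genes most like ctl-1 rest on the same counts. These values are descriptions over 7 groups of 2 libraries, which differ in total depth and junction share.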

How the data were processed

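Whole-worm RNA was sequenced as single-end reads after TruSeq RNA v2 preparation. Base calls were made with CASAVA 1.8.2, per the submitters' processing notes, and the authors mapped reads to WBcel235 and counted them per gene with CLC Genomics Workbench. Deposited for each library were counts of total and unique exon reads, junction and intron reads per gene, and RPKM values, which the authors scaled to exon length and library total. Exon lengths were multiples of 3 for 95.4% of genes, so they are taken as coding lengths, although that of sod-4 (677 bases) is not a multiple of 3. A total of 25 columns without a header were left out.

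Total exon reads were tested with edgeR 4.0.16 (R 4.3.3): genes passing filterByExpr at a minimum count of 10, TMM, 1 coefficient per group, glmQLFit and glmQLFTest, Benjamini-Hochberg adjustment over all genes tested, called under 0.05. One fit held the 12 libraries outside C (HS) (13892 genes), one the 6 heat-shocked libraries (13149) for rIIS-C (HS) against C (HS), and one all 14 (14084) for heat shock. CPM levels come from the TMM factors of all 14 libraries. Fold changes carry the SE of the quasi-likelihood fit and 95% intervals of 1.96 SE. The alternatives were RLE, DESeq2 1.42.0, no filter, unique reads, limma 3.58.1 on log2(RPKM + 1), a replicate block, a junction share term, removal of the exon length trend, a single fit of all libraries, the study's thresholds and leaving out each library. The reads of the 3 catalases were also summed as 1 feature, an alternative chosen after seeing the data. Scripts were tested on simulated data.

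All 10 members are named. Of the lists, up to 3 called genes of largest fold change per direction are named that reached 10 CPM in a group. The members and lists were chosen with earlier results of these data known. Replicates with the same number did not pair in all groups: correlations of their deviations ran from -0.37 to 0.32, with 10 of 21 above 0.1. Outside C (HS), replicate 1 had the low junction share and replicate 2 the high one, except in rIIS-C (HS), where this was swapped. Pairs of like junction share had 0.12 to 0.37 in 15 of 15. The main fits held no term for replicate number or junction share. A motif search in promoters was not run here.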

Additional observations from a re-analysis of the deposited data

Results flagged for a closer look

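The response to heat shock differed between the double mutant and the control strain for 4 members by edgeR's test of the difference itself. Over all genes 10.6% were called lower and 9.97% higher. On the RPKM scale limma called 0 members, and the calls of sod-4 and prdx-2 were lost with most single libraries left out. On the log2 scale the response of rIIS-C minus that of C was -2.18 for ctl-3, -1.72 for sod-1, -1.42 for sod-4 and -1.16 for prdx-2. For sod-1 the levels ran from 66.5 and 58.9 to 229.5 and 378 CPM in C and from 102 and 101 to 172 and 125 CPM in rIIS-C, higher after heat shock in both strains and called by edgeR in C. For ctl-3 they ran from 6.30 and 9.67 to 18.1 and 34.8 CPM in C and from 34.7 and 18.1 to 17.2 and 20.5 CPM in rIIS-C, where the groups overlapped. Of the ctl-3 reads 14.3% were unique, and the C (HS) tables behind all 4 values differ from the others in unique and junction shares, whose part was not tested.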

How the results depend on the processing

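Of 1102 refits of the 90 results for single members and the catalase sum, 937 kept their direction and their side of the threshold, 76 lost a call, 47 gained one and 42 changed sign, 37 of them called in neither fit. On RPKM by limma 15 changed sign: against skn-1i sod-1 to 0.086, sod-3 to 0.29 and prdx-2 to 0.37, against hsf-1i (HS) sod-3 to 0.071, ctl-1 to 0.143 and ctl-2 to 0.52, in rIIS-C against C prdx-2 to 0.00114, in rIIS-C (HS) against C (HS) sod-2 to 0.285, ctl-3 to 0.399 and prdx-3 to 0.175, and for the difference of heat shock responses sod-2 to 0.0482, sod-3 to 0.183, ctl-1 to 0.564, ctl-2 to 0.526 and prdx-3 to 0.0131. Elsewhere in rIIS-C (HS) against C (HS), ctl-1 went to -0.0455 and ctl-2 to -0.306 with the length trend removed, ctl-1 to -0.0149 and sod-3 to -0.14 with the junction share term, and ctl-1 to -0.298 and ctl-2 to -0.0341 on unique reads. On unique reads ctl-1, with few of them, went to 0.594 against hsf-1i (HS) and 0.084 in daf-16i against C, and with no filter prdx-2 went to -0.00829 against daf-16i. On RPKM the members called were 5 against skn-1i (3 lower, 2 higher), 2 against hsf-1i (HS) (both higher, with 0 of the 6 lower calls kept), 2 for heat shock in C and 0 for the difference of heat shock responses. A single fit of all 14 libraries called 1 in rIIS-C against C, 1 against daf-16i and 4 in rIIS-C (HS) against C (HS). For daf-16i against C, no filter and the study's thresholds each called 1. For rIIS-C (HS) against C (HS) the replicate block, the junction share term and the removed length trend each called 1, and the study's thresholds 4. For heat shock in rIIS-C, DESeq2 called 3, no filter 2, the replicate block 1, the junction share term 1, the removed length trend 1 and the study's thresholds 5. With the length trend removed the difference of heat shock responses had 2. The cause was not tested. Shares of all genes called are given here for the main fits only, so the counts under other settings are not read as a result about the members. The replicate block moved no other count of members called by over 1.5 times and changed the calls of sod-1 in rIIS-C (HS) against C (HS) and ctl-1 for heat shock in rIIS-C.

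Leaving out 1 library at a time gave 1 to 2 members in rIIS-C against C, 0 to 3 against daf-16i, 7 to 8 against skn-1i, 4 to 6 against hsf-1i (HS), 0 to 5 in rIIS-C (HS) against C (HS), 9 to 10 for heat shock in C, 0 for heat shock in rIIS-C and for daf-16i against C, and 1 to 5 for the difference of responses. Signs changed for 13 results that were not called: rIIS-C against C for sod-2 (-0.216 to 0.448) and prdx-2 (-0.359 to 0.138), against daf-16i for sod-2 (-0.295 to 0.37) and prdx-2 (-0.252 to 0.244), daf-16i against C for sod-2 (-0.0721 to 0.248), rIIS-C (HS) against C (HS) for sod-3 (-0.19 to 0.267), ctl-2 (-0.42 to 0.702), ctl-3 (-0.903 to 0.0466) and the catalase sum (-0.325 to 0.463), heat shock in rIIS-C for sod-4 (-0.376 to 0.0187) and ctl-3 (-0.883 to 0.0565), and the difference of responses for ctl-1 (-0.395 to 0.0961) and ctl-2 (-0.742 to 0.366). With 1 library left in a group, that library is assumed to vary like the others. The share of all genes called in these fits is not given here. With 2 libraries a group, a lone replicate decides many calls. The p-values of edgeR set a group difference against a spread estimated over all libraries of the fit, with no term for junction share in the main fits. ctl-1 has too few unique reads to be judged on them. sod-5 had too few reads for the main fits, but passed the filter in some fits without 1 library, and without C (HS) replicate 1 it was the added call for heat shock in C (adjusted p = 0.0426).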
